A study of Homo sapiens with 12 samples.

Results

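Histone genes of the clustered loci were taken as the protein-coding rows of the deposited gene tables whose names begin with HIST1H, HIST2H, HIST3H or HIST4H, which gave 72 of 60106 genes. They comprised 6 H1, 18 H2A, 18 H2B, 15 H3 and 15 H4 genes. The large cluster on chromosome 6 (HIST1) held 55 of them, the chromosome 1 loci held 13 (HIST2) and 3 (HIST3), and chromosome 12 held 1 (HIST4H4). The symbol HIST2H2AA4 stands for 2 gene models, so the members carry 71 distinct symbols. They were measured by RNA sequencing in 2 established human prostate cancer cell lines after siRNA against FOXA1 (siFOXA1) or a non-targeting control siRNA (NSI), for 72 h, with 3 libraries in each of the 4 groups. PC3, from a bone metastasis, received 20 nM siRNA in RPMI medium, and its libraries were made from polyadenylated RNA. VCaP, from a vertebral metastasis, received 40 nM siRNA in DMEM, and its libraries were made from total RNA. The cell line therefore cannot be told apart from its kit, siRNA dose and medium, nor from the use of strand in counting, which was made in VCaP alone.

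Nucleosomes are built of pairs of H2A, H2B, H3 and H4 around which DNA is wrapped, with H1 bound to the linker DNA. The clustered genes are the replication-dependent ones: they are transcribed mostly in S phase, when new chromatin is assembled, and most lack introns. Their mRNAs usually end in a conserved stem-loop instead of a poly(A) tail. The stem-loop binding protein SLBP and the U7 small nuclear RNP direct the cut, and polyadenylated forms also occur. A library made by poly(A) selection and one made from total RNA therefore sample different fractions of these transcripts. FOXA1 is a forkhead transcription factor of prostate epithelium that opens chromatin for other factors.

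The tables held 123140099 to 188226483 counts per library in PC3 and 48187047 to 59839211 in VCaP. Members took 0.0331% to 0.0386% of the counts in the PC3 NSI libraries and 0.0605% to 0.0703% in the PC3 siFOXA1 libraries. In VCaP they took 0.723% to 0.822% in NSI and 0.289% to 0.344% in siFOXA1. The siRNA target FOXA1 stood at 62.3% of its NSI level in PC3 and at 16.5% in VCaP, with no overlap between the groups in either line (log2 fold changes of -0.68, adjusted p 0.0022, and -2.60, adjusted p 1.84e-07). Of the marker genes of the lines, KLK2, ERG and FOLH1 had NSI means of 238 CPM or more in VCaP and at most 0.0297 CPM in PC3, while CD44, VIM and ITGB4 had NSI means of 349 CPM or more in PC3 and at most 5.37 CPM in VCaP. KRT18 and KRT8, also among the markers looked at, did not set the lines apart in this way. VCaP had the higher NSI mean of KRT8, 230 CPM against 128 for PC3. For KRT18 the higher NSI mean was that of PC3, 276 CPM against 125 for VCaP. CPM are counts per 1000000 of the library size of each sample, adjusted by a scaling factor (TMM) computed within each line. These were bulk libraries, in which fewer cells of a kind and less RNA per cell cannot be told apart.

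The stem-loops are shown because they mark the end of the mature replication-dependent mRNA, and with it the part of each gene model that a poly(A)-selected library would reach only through longer transcripts. A stem-loop of the pattern GGNNNTNNTNANNNCC, searched on the sense strand within 150 bases after the stop codon on GRCh37, was present in all 69 members whose stop codon could be placed. The same search matched 153 of 19612 other protein-coding genes, or 0.780%. There were 10 forms, of which 4 covered 63 members, and the other 6 forms occurred once each. In the sequences below the 4 bases of the loop are in capitals. The first was carried by 41 members, the second by 9 H4 genes, the third by 9 members and the fourth by 4 H4 genes. The last 3 are single forms.
HIST1H1C, chr6:26055972-26055987, minus strand: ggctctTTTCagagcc
HIST1H4C, chr6:26104545-26104560, plus strand: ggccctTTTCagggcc
HIST1H2BK, chr6:27114145-27114160, minus strand: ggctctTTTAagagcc
HIST1H4I, chr6:27107433-27107448, plus strand: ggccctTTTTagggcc
HIST2H2AC, chr1:149858941-149858956, plus strand: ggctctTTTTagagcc
HIST1H3E, chr6:26225824-26225839, plus strand: ggctctTCTCagagcc
HIST1H2AK, chr6:27805663-27805678, minus strand: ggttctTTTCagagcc

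A polyadenylation signal (AATAAA or ATTAAA, sense strand) lay in the same 150-base window of 7 of the 69 members, against 20.1% of the other protein-coding genes. The 7 were HIST1H1C, HIST1H2AB, HIST2H2AA3, both HIST2H2AA4 models, HIST1H2BD and HIST1H4J. The gene models used for counting differed at this end. In 37 members the model stopped before the end of the stem-loop, in 8 it ran under 100 bases past it, and in 24 it ran at least 100 bases past it.

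Promoters from RefSeq (GRCh38.p14, 250 bases before to 50 bases after the start) were matched for 62 of the 72 members. The octamer ATTTGCAT, read on either strand and known as a site of the factor OCT1 in H2B promoters, was found in 11 of 17 H2A, 9 of 13 H2B, 1 of 13 H3 and no H1 or H4 promoters, against 1.77% of 35116 promoters in the table. CCAAT was found in every matched H1, H2A, H2B and H3 promoter and in 3 of 13 H4 promoters, against 34.6% of the table. TATAAA occurred in 3 of 6 H1, 13 of 17 H2A, 9 of 13 H2B, 10 of 13 H3 and 7 of 13 H4 promoters, against 11.5%. None of the 3 motifs contains another, though matches can share end letters, and a match describes these windows only. The counts are not of separate promoters. The H3 gene with an octamer, HIST1H3D, has the same window as the H2A gene HIST1H2AD, and both HIST2H2AA4 models share 1 window. Windows of divergent H2A and H2B genes can overlap, as for HIST1H2AG and HIST1H2BJ, so that 1 octamer counts for both types. Promoters of HIST2H2BE and HIST1H2BK are printed because each lies between a pair of divergent genes whose levels stood far apart, as described further on. Octamer and TATA matches on either strand are in capitals.
HIST2H2BE, chr1:149886633-149886932, minus strand: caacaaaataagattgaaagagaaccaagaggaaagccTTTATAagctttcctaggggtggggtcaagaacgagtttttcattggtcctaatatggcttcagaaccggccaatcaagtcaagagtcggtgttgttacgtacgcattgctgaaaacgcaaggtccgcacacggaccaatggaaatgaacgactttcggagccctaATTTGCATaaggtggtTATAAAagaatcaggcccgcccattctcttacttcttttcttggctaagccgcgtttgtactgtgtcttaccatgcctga
HIST1H2BK, chr6:27146809-27147108, minus strand: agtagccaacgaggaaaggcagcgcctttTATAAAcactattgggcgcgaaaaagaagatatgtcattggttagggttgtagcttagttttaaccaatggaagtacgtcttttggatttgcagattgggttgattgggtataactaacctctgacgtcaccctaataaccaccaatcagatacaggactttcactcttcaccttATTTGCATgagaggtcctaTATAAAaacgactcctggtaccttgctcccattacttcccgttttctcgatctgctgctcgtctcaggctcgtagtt

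With the control siRNA, the members formed different profiles in the 2 lines. In the PC3 NSI libraries 33 of 72 members had a mean of at least 1 CPM, 11 had at least 10 CPM and none reached 100 CPM. In the VCaP NSI libraries the corresponding numbers were 61, 53 and 32. The mean was at least 10 times higher in VCaP for 59 members and at least 100 times higher for 34. Only HIST3H2A, HIST2H2BE, HIST1H3E and HIST1H4I had the higher mean in PC3, and all 4 have models that run at least 100 bases past the stem-loop. The median PC3 NSI level was 5.55 CPM for the 24 members with such models, 1.16 CPM for the 8 that run under 100 bases past it and 0.0684 CPM for the 37 that stop before its end. The corresponding medians in VCaP were 127, 113 and 61.4 CPM. Longer models collect more counts, and per kilobase of exon the order in VCaP was another. The medians in the same order of classes were 3.68, 2.44 and 0.166 CPM per kb in PC3 NSI. In VCaP NSI they were 80.3, 231 and 135 CPM per kb. The Spearman correlation of the NSI levels of PC3 and VCaP across the 72 members was 0.47, as a description of genes that share the 2 sets of libraries.

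**Figure D1:**
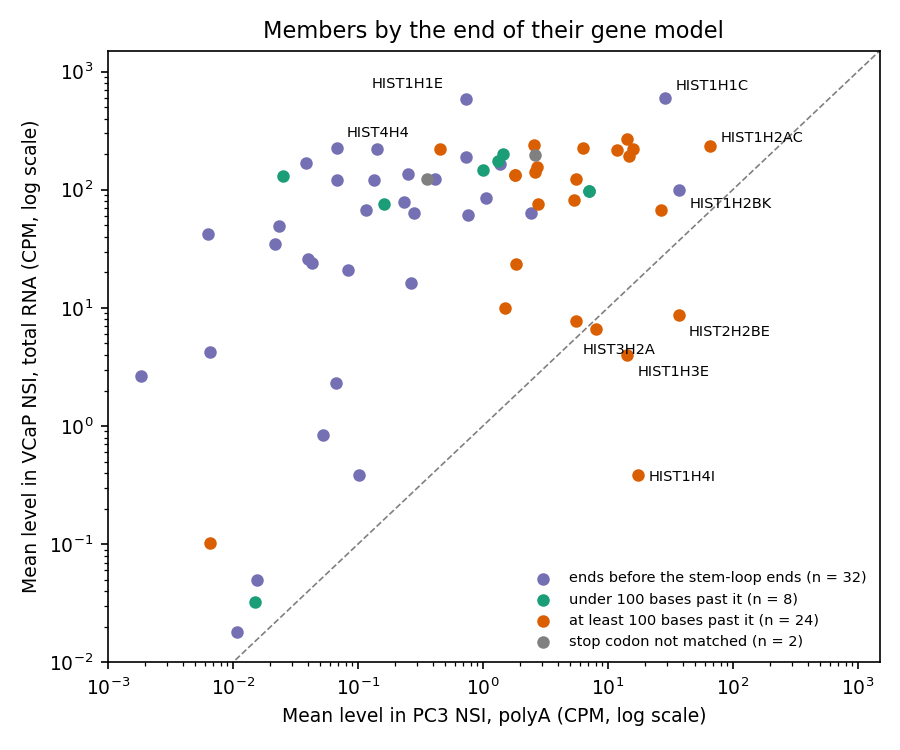
Mean NSI level of each member in PC3 (x axis) and VCaP (y axis) in CPM on log scales, coloured by where the counted gene model ends relative to the stem-loop, with the dashed line marking equal levels. The 66 members with counts in both are plotted, and HIST2H2BE, HIST1H3E, HIST1H4I and HIST3H2A lie below the line.

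Per kilobase of exon, the leading members of PC3 NSI were HIST1H2BK (97.1 CPM per kb), HIST1H1C (44.9), HIST1H2AC (40.1), HIST1H4H (25.9) and HIST2H4A (20.3). The leading H3 gene, HIST1H3E, stood at 5.37 CPM per kb. In VCaP NSI the order was HIST1H1C (928 CPM per kb), HIST1H1E (781), HIST1H3B (541), HIST1H4K (528) and HIST1H4C (520.1). HIST1H1E, which encodes a linker histone, and HIST1H3B and HIST1H4C, which encode core histones, were at 0.971, 0.344 and 0.156 CPM per kb in PC3. Long annotated 3′ ends lower a value per kilobase when few reads fall there. The summed level was concentrated in few genes in PC3, where HIST1H2AC, HIST1H2BK, HIST2H2BE, HIST1H1C and HIST1H4H held 53.8% of it. The 5 leading genes of VCaP, HIST1H1C, HIST1H1E, HIST1H2BD, HIST1H2AG and HIST1H2AC, held 25.3%.

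Counts were too low to test 18 members in PC3 and 8 in VCaP, and the 8 were among the 18. These 8 were the linker histone genes HIST1H1A and HIST1H1B, the testis genes HIST1H2AA, HIST1H2BA and HIST3H3, and HIST1H3G, HIST1H4F and HIST1H4G. None of them had a group mean above 0.183 CPM in VCaP. The other 10, tested in VCaP alone, were HIST1H2AB, HIST1H2AH, HIST1H2BB, HIST1H2BI, HIST1H3I, HIST1H4A, HIST1H4B, HIST1H4L, HIST2H2AB and HIST2H3PS2. HIST1H4L had no rounded count in any PC3 library and 126, 129 and 143 CPM in the VCaP NSI libraries.

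After siFOXA1 the clustered histone genes stood higher in PC3 and lower in VCaP. In PC3 the summed level of the members was 346, 347 and 399 CPM in NSI against 614, 688 and 585 CPM in siFOXA1. The mean went from 364 ± 30.3 to 629 ± 53.1 CPM (SD, n = 3 each), or 173% of NSI. In VCaP the sum was 7337, 6942 and 8543 CPM in NSI against 3372, 2879 and 3015 CPM in siFOXA1. Its mean went from 7607 ± 834 to 3089 ± 255 CPM (SD, n = 3 each), or 40.6% of NSI. In each line the groups did not overlap, and the exact permutation test (two-sided) gave p = 0.1, the smallest that 3 against 3 libraries allow.

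The sum of every histone type, itself a part of the whole sum, moved in the same direction, with siFOXA1 and NSI libraries apart for all 5 types in both lines. In PC3 the summed H2B genes reached 196% of their NSI level, H2A 189%, H1 171%, H3 137% and H4 127%. H4 genes accordingly went from 21.4% to 15.8% of the members' summed CPM, and H2B genes from 32.3% to 36.8%. The PC3 sum of H1, 32.1 CPM in NSI and 54.9 CPM in siFOXA1, came mostly from HIST1H1C, the only H1 gene called there. The VCaP sums stood at 46.3% of NSI for H1, 40.9% for H2B, 40.5% for H2A, 39.0% for H4 and 36.4% for H3. H1 genes went from 16.4% to 18.7% of the members' summed CPM there, and H3 genes from 14.7% to 13.1%.

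**Figure D2:**
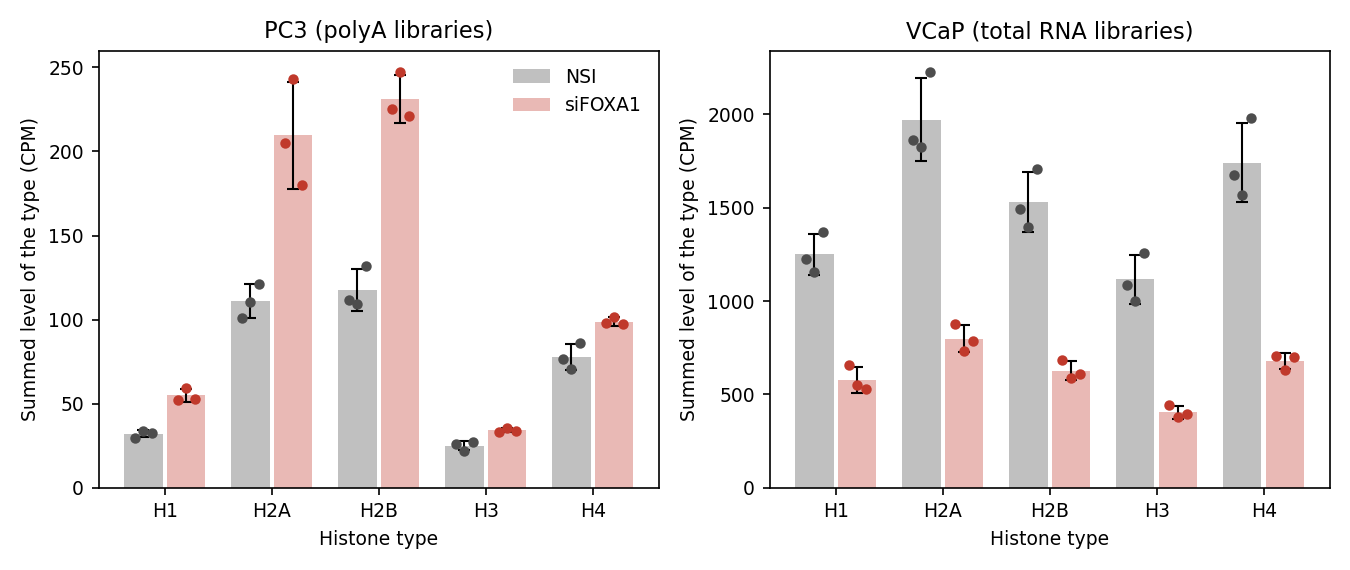
Summed level of the members of each histone type in CPM in PC3 (left) and VCaP (right), with bars for the mean of 3 libraries, error bars for the SD and points for the libraries. All siFOXA1 points lie above the NSI points in PC3 and below them in VCaP, and the 2 vertical scales differ.

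Of the 54 members tested in PC3, 27 rose, against 13.9% of all 26478 genes called higher (27.7% in either direction), and none fell, also at an unadjusted p under 0.05 and by DESeq2, which called 28 higher. Calls over all genes were 3675 higher and 3669 lower, and with library size alone as scaling 4607 higher and 2562 lower, when 29 members rose and none fell. The median log2 fold change of the tested members was 0.71, beside -0.01 for all genes, and 50 of 54 values were positive. For 35 members every siFOXA1 library lay above every NSI library, which held for 22.4% of all genes tested. By type, 1 of 4 tested H1, 9 of 14 H2A, 9 of 15 H2B, 2 of 11 H3 and 6 of 10 H4 genes rose. Demanding a change above a log2 fold of 1 left HIST2H2BE alone. Without single libraries the count ran from 23 (without siFOXA1 replicate 1) to 28.

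**Figure D3:**
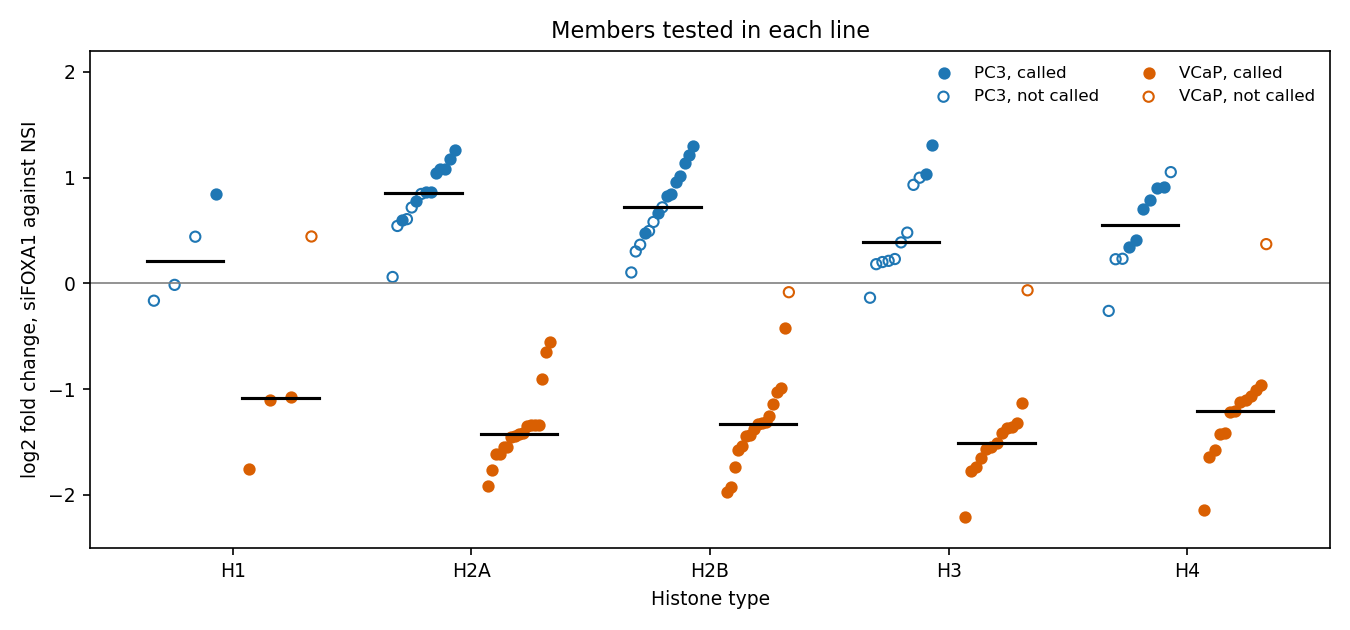
Log2 fold change of siFOXA1 against NSI (y axis) for each member tested in PC3 (blue) and VCaP (orange), by histone type, with filled points for adjusted p under 0.05 and black lines for the median of each type. Filled points are all above 0 in PC3 and all below 0 in VCaP.

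The linker histone gene HIST1H1C (chromosome 6, 26056015 to 26056656, minus strand) was the only H1 gene of the 4 tested to be called in PC3. It stood at 26.1, 31.4 and 28.9 CPM in NSI against 49.5, 56.3 and 49.6 CPM in siFOXA1, and its log2 fold change was 0.85 (SE 0.10, adjusted p 0.000609). All 3 siFOXA1 libraries were above all NSI libraries. HIST1H1D and HIST1H1E, which encode other somatic linker histones, had values of -0.16 (SE 0.18) and -0.01 (SE 0.26), and their groups overlapped. HIST1H1E rested on 344 counts over the 3 NSI libraries and 334 over the siFOXA1 libraries. HIST1H1T, a testis linker histone gene, was at 0.102 CPM in NSI and 0.137 CPM in siFOXA1.

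Among H2A genes, HIST1H2AC (chromosome 6, 26124373 to 26139330, plus strand) was the most abundant member of the PC3 libraries by CPM. It stood at 60.8, 61.8 and 76.5 CPM in NSI against 119, 131 and 112 CPM in siFOXA1. The groups were apart, at a log2 change of 0.86 (SE 0.11, adjusted p 0.00104). HIST2H2AA3 (chromosome 1, 149813505 to 149814478, minus strand) stood at 12.9, 16.7 and 14.5 CPM in NSI against 29.6, 39.3 and 22.4 CPM in siFOXA1, a change of 1.05 (SE 0.19, adjusted p 0.00509). Its groups were apart, and siFOXA1 replicate 3 was the lowest of its group. This gene has identical copies in the genome, so its share of the reads is uncertain. The largest H2A value was that of HIST1H2AI, 1.26 (SE 0.24, adjusted p 0.00561), on means of 1.45 and 3.49 CPM, and 62.3% of the 50-base words of HIST1H2AI occur elsewhere in the genome. HIST1H2AE rose by 1.17 (SE 0.26, adjusted p 0.0106), on means of 1.01 and 2.28 CPM. The other named H2A genes were not called, with values of 0.61 (SE 0.32) for HIST2H2AC and 0.06 (SE 0.70) for HIST1H2AL.

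HIST2H2BE (chromosome 1, 149856009 to 149858202, minus strand), an H2B gene whose model runs at least 100 bases past the stem-loop, had the smallest adjusted p of all members in PC3. It stood at 36.4, 33.7 and 40.6 CPM in NSI against 89.2, 91.6 and 92.4 CPM in siFOXA1. The siFOXA1 libraries lay close together and far above NSI, and the log2 fold change was 1.30 (SE 0.09, adjusted p 3.8e-05). HIST1H2BC (chromosome 6, 26115101 to 26124154, minus strand) was at 5.90, 6.03 and 7.08 CPM in NSI against 15.2, 16.2 and 12.7 CPM in siFOXA1. It rose by 1.21 (SE 0.13, adjusted p 0.000309) with no overlap of the groups. HIST1H2BK rose by 0.83 (SE 0.11, adjusted p 0.000887) from 37.0 ± 1.35 to 65.8 ± 8.55 CPM (SD, n = 3 each), and 74.1% of its 50-base words occur elsewhere in the genome. HIST1H2BG and HIST1H2BD rose by 0.85 (adjusted p 0.00165) and 0.67 (adjusted p 0.0123). HIST1H2BM, at 0.0432 CPM in NSI, had a value of 0.72 (SE 0.53, adjusted p 0.346).

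By summed CPM the H3 genes were the least abundant core histone genes in PC3. HIST1H3H (chromosome 6, 27777842 to 27779078, plus strand) was at 5.88, 4.77 and 6.09 CPM in NSI against 11.0, 11.5 and 11.9 CPM in siFOXA1. Its groups were apart, at a log2 change of 1.04 (SE 0.12, adjusted p 0.000464). HIST1H3E (chromosome 6, 26224427 to 26227701, plus strand) was the H3 gene with the highest level per kilobase in NSI. It moved little, from 15.0, 13.1 and 15.0 CPM in NSI to 15.9, 17.2 and 15.9 CPM in siFOXA1. The siFOXA1 libraries were above the NSI libraries, but the change of 0.18 (SE 0.09) was not called (adjusted p 0.182). The value was -0.14 (SE 0.59) for HIST1H3B and 0.93 (SE 0.56) for HIST1H3F, which rested on 62 and 31.2 counts over the NSI libraries. Without single libraries the value of HIST1H3F ran from 0.58 to 1.73.

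H4 genes encode the same protein, except for HIST1H4G. HIST1H4H (chromosome 6, 26281283 to 26285762, minus strand) was at 28.2, 21.8 and 30.4 CPM in NSI against 31.3, 30.0 and 33.2 CPM in siFOXA1, with overlapping groups. The value was 0.23 (SE 0.13, adjusted p 0.203) and was called with the replicate number as a block, at 0.25 (SE 0.08, adjusted p 0.0318). HIST2H4A rose by 0.34 (SE 0.09, adjusted p 0.0258) from 11.8 ± 0.651 to 15.0 ± 0.881 CPM (SD, n = 3 each), but its adjusted p was 0.0752 without NSI replicate 1, 0.0575 without NSI replicate 3, 0.0837 without siFOXA1 replicate 1 and 0.0656 without siFOXA1 replicate 2. Its sequence has an identical copy, HIST2H4B. HIST1H4K and HIST4H4 rose by 0.79 (adjusted p 0.00491) and 0.91 (adjusted p 0.00762), the latter from 0.447, 0.402 and 0.521 CPM to 0.870, 0.795 and 0.918 CPM. HIST4H4 thus rose at a level far below that of HIST1H4H, and its groups were apart. HIST1H4C, with 30 counts in the NSI libraries together, had a value of -0.26 (SE 0.66), which was 0.85 without NSI replicate 1.

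With the replicate number as a block, 30 members were called in PC3. The 3 added were HIST1H4H, HIST1H2AD (0.53, adjusted p 0.0417) and HIST1H2AK (0.72, adjusted p 0.0374), of which the last 2 were named after their values were seen. HIST1H2AK lies wholly on the strand opposite to an exon of HIST1H2BN, and the PC3 counts ignored strand, so reads of these 2 genes cannot be told apart there. HIST1H2AD overlaps another gene on the same strand over 97.96% of its exon, and fragments of both genes were divided.

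In VCaP 60 of 64 tested members fell, against 23.3% of all 22939 genes called lower (45.8% in either direction), and none rose, also at an unadjusted p under 0.05 and by DESeq2, which called the same 60. The median log2 fold change was -1.37, beside 0.02 for all genes. For 60 members every siFOXA1 library lay below every NSI library, which held for 28.0% of all genes tested. By type 3 of 4 tested H1, all 17 H2A, 16 of 17 H2B, 12 of 13 H3 and 12 of 13 H4 genes fell. The exceptions were HIST1H1T, HIST2H2BE, HIST1H3E and HIST1H4I. Without single libraries the count was 59 or 60, the gene lost being HIST2H2BF (without NSI replicate 3 or siFOXA1 replicate 2), and 41 members passed a minimum log2 fold of 1.

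HIST1H1C led the VCaP libraries, with 594, 553 and 641 CPM in NSI against 338, 276 and 238 CPM in siFOXA1. The groups were apart and the log2 fold change was -1.07 (SE 0.12, adjusted p 9.8e-05). HIST1H1E, next in level, fell by 1.10 (SE 0.09, adjusted p 1.46e-05) from 567, 546 and 655 CPM to 298, 256 and 270.2 CPM. HIST1H1D, at 63.7 ± 10.4 CPM in NSI (SD, n = 3), fell by 1.76 (SE 0.14, adjusted p 8.64e-06). All 3 had siFOXA1 libraries below every NSI library. HIST1H1T was at 0.389 CPM in NSI and 0.531 CPM in siFOXA1, with overlapping groups (adjusted p 0.189).

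HIST1H2AC showed the smallest fall among the named H2A genes of VCaP. It was at 225, 206 and 266 CPM in NSI against 159, 148 and 167 CPM in siFOXA1, a change of -0.56 (SE 0.10, adjusted p 0.00137) with no overlap. HIST2H2AC (-1.35), HIST2H2AA3 (-1.34), HIST1H2AE (-1.43), HIST1H2AI (-1.45) and HIST1H2AH (-1.76) stood at 29.5% to 39.6% of their NSI means. HIST1H2AL (chromosome 6, 27833133 to 27833525, plus strand) fell most, from 21.0, 18.8 and 22.8 CPM to 6.29, 5.31 and 5.05 CPM. Its change was -1.91 (SE 0.11, adjusted p 1.5e-06), and the groups were far apart.

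Among H2B genes, HIST1H2BM fell from 24.5, 22.0 and 26.0 CPM to 7.32, 6.24 and 5.60 CPM, a change of -1.92 (SE 0.11, adjusted p 1.5e-06) with no overlap. HIST1H2BG and HIST1H2BK fell by 1.54 and 1.31 on the log2 scale, and HIST1H2BC and HIST1H2BD by 1.02 and 0.98. HIST2H2BE was the exception. Its level was 8.90, 8.01 and 9.16 CPM in NSI against 7.92, 7.51 and 9.18 CPM in siFOXA1, overlapping groups with a change of -0.08 (SE 0.10, adjusted p 0.541).

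H3 and H4 genes fell with few exceptions. HIST1H3B fell from 215, 205 and 248 CPM to 97.5, 84.7 and 84.9 CPM, a change of -1.32 (SE 0.09, adjusted p 4.32e-06). HIST1H3F and HIST1H3H changed by -1.41 and -1.51. HIST1H3E, at 3.79, 3.49 and 4.62 CPM in NSI against 3.99, 3.68 and 3.73 CPM in siFOXA1, had a value of -0.06 (SE 0.13, adjusted p 0.71), which was 0.06 without NSI replicate 3. HIST4H4 (chromosome 12, 14923489 to 14924065, minus strand) had the smallest adjusted p of all members. It went from 186, 218 and 256 CPM to 53.4, 45.2 and 51.3 CPM, a change of -2.14 (SE 0.12, adjusted p 1.29e-06), with all siFOXA1 libraries far below every NSI library. HIST2H4A, HIST1H4K, HIST1H4C and HIST1H4H changed by -1.64, -1.22, -1.12 and -0.96. HIST1H4I stood at 0.385, 0.379 and 0.400 CPM in NSI against 0.556, 0.517 and 0.438 CPM in siFOXA1, with siFOXA1 above NSI but no call (0.37, SE 0.20, adjusted p 0.204).

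**Figure D4:**
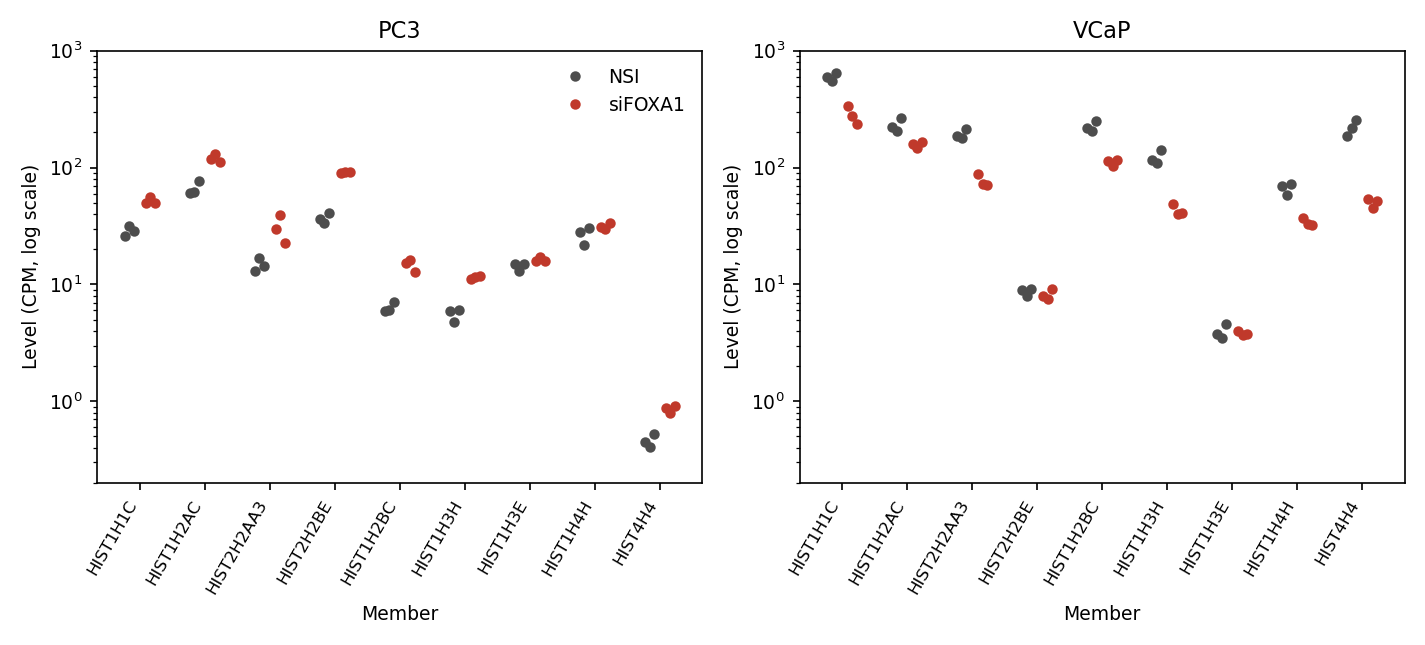
Level of 9 members in each library of PC3 (left) and VCaP (right) in CPM on a log scale, with grey points for NSI and red points for siFOXA1. HIST2H2BE separates by siRNA in PC3 and overlaps in VCaP, HIST4H4 is below 1 CPM in PC3 and falls to 22.7% of its NSI level in VCaP, and HIST1H3E moves little in either.

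Of the 54 members tested in both lines, 25 rose in PC3 and fell in VCaP, 25 were not called in PC3 and fell in VCaP, 2 rose in PC3 and were not called in VCaP, and 2 were called in neither. The pair that rose in PC3 alone comprised HIST2H2BE and HIST1H4I, and the pair called in neither was HIST1H1T and HIST1H3E. The difference itself, the VCaP effect minus the PC3 effect, was tested in 66 members over all 12 libraries. It was below 0 and called in 54, against 11.1% of all 30450 genes called lower (22.1% in either direction), and above 0 in none, also at an unadjusted p under 0.05 and by DESeq2, which called 54 lower. The median difference was -2.01 on the log2 scale, beside 0.05 for all genes. Of these members, 12 had been too low to test in PC3 and entered the fit of 12 libraries mostly through their VCaP level, and 5 of the 54 calls were among them. Of the 54 members tested in PC3, 49 were called, with a median difference of -1.998. Without single libraries the count was 51 to 55.

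Differences were large for HIST4H4 (-3.06, SE 0.20, adjusted p 5.45e-08), HIST1H2AI (-2.72, SE 0.25, adjusted p 1.36e-06) and HIST1H2AE (-2.60, SE 0.25, adjusted p 2.83e-06). HIST1H3H and HIST1H2BG differed by -2.56 and -2.40. HIST2H2BE differed by -1.40 (SE 0.14, adjusted p 3.09e-06) although it was not called in VCaP. HIST1H3E (-0.26, SE 0.16, adjusted p 0.273) and HIST1H4I (-0.05, SE 0.20, adjusted p 0.978) were not called. For members near 0 in PC3 the difference was poorly determined. For HIST1H4C it was -0.89 (SE 0.55, adjusted p 0.292), and the adjusted p was 0.00397 without PC3 NSI replicate 1. For HIST1H3B it was -1.27 (adjusted p 0.0748), and the adjusted p was 0.0123 without PC3 NSI replicate 2, 0.0352 without PC3 siFOXA1 replicate 2 and 0.00751 with no filter on low counts. The difference of HIST1H2AL, -2.003 (adjusted p 0.0224), had an adjusted p of 0.052 without PC3 NSI replicate 3 and 0.0608 without PC3 siFOXA1 replicate 2.

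The changes were then set beside the ends of the gene models. In PC3 the median log2 fold change was 0.60 for the 23 tested members with models at least 100 bases past it, of which 15 rose, 1.08 for the 6 tested members that run under 100 bases past it, of which 5 rose, and 0.61 for the 23 tested members that end before it, of which 5 rose. In VCaP the medians were -1.32, -1.42 and -1.49, and 20 of 23, 7 of 7 and 31 of 32 fell. Of all genes tested, 13.9% were called higher in PC3 and 23.3% lower in VCaP. The 5 of 23 for models that end before the stem-loop ends lay near the PC3 share. All 37 members with such models had a median PC3 NSI level of 0.0684 CPM, and the part of depth in their calls was not tested. By exon length, the PC3 medians were 0.48 for the 17 tested members of at least 1000 bases, of which 10 rose, and 0.72 for the 37 shorter ones, of which 17 rose. The VCaP median was -0.98 for the 11 members with a PC3 NSI mean of at least 10 CPM, -1.35 for the 22 at 1 to 10 CPM and -1.55 for the 31 tested members under 1 CPM. Across the 54 members tested in both lines, the Spearman correlation between PC3 NSI level and VCaP log2 fold change was 0.44, and between the log2 fold changes of the 2 lines 0.08, both as descriptions across genes.

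Position within the clusters was examined next. Members on 1 chromosome with starts within 500000 bases of their neighbour formed 6 blocks on GRCh37, 3 of them on chromosome 6. In PC3 the summed siFOXA1 level was 163%, 162% and 166% of NSI in the chromosome 6 blocks (25726360 to 26285762, 27093676 to 27115294 and 27775222 to 27861621), 196% in the HIST2 block (chromosome 1, 149400132 to 149859466), 186% in HIST3 and 188% at HIST4H4. The VCaP values were 44.4%, 35.8% and 37.8% on chromosome 6, 37.9% in HIST2, 49.7% in HIST3 and 22.7% at HIST4H4. Every block thus moved in the direction of the sum in both lines. In PC3, HIST2H2BE alone went from 36.9 to 91.1 CPM within a HIST2 sum that went from 104 to 203 CPM. HIST3 had 2 tested members there, and HIST4H4 is 1 gene at 0.457 CPM in NSI. Differences between blocks therefore rest on few genes and were not tested.

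Divergent neighbours, a minus-strand gene followed by a plus-strand gene with annotated starts under 1000 bases apart, formed 11 pairs, each of an H2A and an H2B gene with 218 to 330 bases between them. In VCaP both genes fell in 9 of the 10 pairs in which both were tested. The tenth was HIST2H2BE with HIST2H2AC, where HIST2H2AC fell by 1.35 (188 ± 21.7 to 73.5 ± 9.12 CPM, SD, n = 3 each) while HIST2H2BE, whose promoter is printed above, lay between 7.51 and 9.18 CPM. In PC3 both rose in 3 of 9 pairs and 1 of the pair rose in 5. Among all tested members 60 of 64 fell in VCaP and 27 of 54 rose in PC3. Whether neighbours moved together beyond these shares was not tested. The pair of HIST1H2BK and HIST1H2AH stood at 100.2 and 169 CPM in VCaP NSI and at 37.0 and 0.0382 CPM in PC3 NSI, where HIST1H2AH had 16.5 counts over the 3 NSI libraries and 8 over the siFOXA1 libraries. HIST2H2BE and HIST2H2AC stood at 36.9 and 0.730 CPM in PC3 NSI and at 8.69 and 188 CPM in VCaP NSI. Of 10 pairs tested in VCaP, 3 had NSI means at least 10-fold apart in PC3 and 1 had them so in VCaP. H2A and H2B genes with the octamer had a median VCaP change of -1.43 (18 tested) and those without -1.34 (10 tested), and the PC3 medians were 0.72 (15 tested) and 0.94 (10 tested).

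Some members cannot be counted apart. Every 50-base word of 8 models, namely HIST2H2AA3, both HIST2H2AA4, HIST2H3A, HIST2H3C, HIST1H4K, HIST2H4A and HIST2H4B, occurred elsewhere in the genome, and their values are uncertain because reads of several positions were divided. The exons of HIST1H2AD, HIST1H3D, HIST2H3PS2 and both HIST2H2AA4 overlap another gene model on the same strand over more than 90% of their length. Fragments of several genes were divided as well. Among the 52 members with under 10% repeated words, 15 of 35 tested rose in PC3 and 40 of 44 tested fell in VCaP, with medians of 0.67 and -1.41.

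Genes of related function were counted in the same fits, in which 13.9% of all genes rose and 13.9% fell in PC3, and 22.5% rose and 23.3% fell in VCaP. Of 25 genes for processing and decay of histone mRNA 3′ ends, none rose and 8 fell in PC3, and 1 rose and 10 fell in VCaP. SLBP, which binds the stem-loop, was at 31.8 CPM in PC3 NSI and 29.3 CPM in siFOXA1 (-0.12, SE 0.10, adjusted p 0.392), and it fell in VCaP from 48.4 to 37.8 CPM (-0.36, SE 0.06, adjusted p 0.000962). The difference between the lines was -0.25 (adjusted p 0.145, and 0.038 without PC3 NSI replicate 2). NPAT, the cyclin E-CDK2 target that activates histone gene transcription, had values of 0.0035 (SE 0.15, adjusted p 0.988) in PC3 and 0.077 (SE 0.06, adjusted p 0.33) in VCaP. LSM10 and LSM11, which form part of the U7 RNP, differed from each other. LSM10 fell in PC3 (-0.66, adjusted p 0.0249) and was 0.19 in VCaP (adjusted p 0.304), and LSM11 fell in VCaP from 7.13 to 2.95 CPM (-1.27, adjusted p 2.48e-05) and was -0.16 in PC3 (adjusted p 0.235). ERI1, the exonuclease that trims the stem-loop end, fell in VCaP (-0.69, adjusted p 5.3e-05).

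Of 12 histone variant genes outside the clusters, whose mRNAs are usually polyadenylated, none rose and 4 fell in PC3, and none rose and 8 fell in VCaP. H2AFZ and CENPA, the variants of gene regulation and of centromeres, fell in both lines, by 0.82 and 0.95 in PC3 and by 0.69 and 0.83 in VCaP on the log2 scale. H2AFJ, a replication-independent H2A gene, fell in VCaP from 86.5 to 25.2 CPM (-1.78, adjusted p 7.14e-06) and was 0.40 in PC3 (adjusted p 0.14). H3F3A, which encodes H3.3, fell in PC3 (-0.61, adjusted p 0.00179) and was 0.24 in VCaP (adjusted p 0.145).

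Among 21 histone chaperone and assembly genes, 1 rose and 4 fell in PC3, and 2 rose and 14 fell in VCaP. The one that rose in PC3 was CHAF1B, a subunit of the chromatin assembly factor CAF-1, from 8.31 to 13.3 CPM (0.68, adjusted p 0.0248), and it fell in VCaP from 52.4 to 28.0 CPM (-0.90, adjusted p 7.4e-06). Of 43 DNA replication and S-phase genes, 1 rose and 5 fell in PC3, and none rose and 42 fell in VCaP, with medians of -0.25 and -0.72. RRM2, a subunit of ribonucleotide reductase, had the largest fall of that list in VCaP (-2.29, adjusted p 6.69e-07), from 123 to 25.2 CPM, and was -0.44 in PC3 (adjusted p 0.0983). CCNA2, the S-phase cyclin, fell in both lines (-0.83 and -1.11). Thus the members' fall in VCaP went with a fall of nearly all S-phase genes of the list. The members' rise in PC3 did not go with a rise of that list. The PC3 libraries were made from polyadenylated RNA, so they sample another fraction of the members' transcripts than the VCaP libraries. The part of S-phase cells in either result was not tested.

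**Figure D5:**
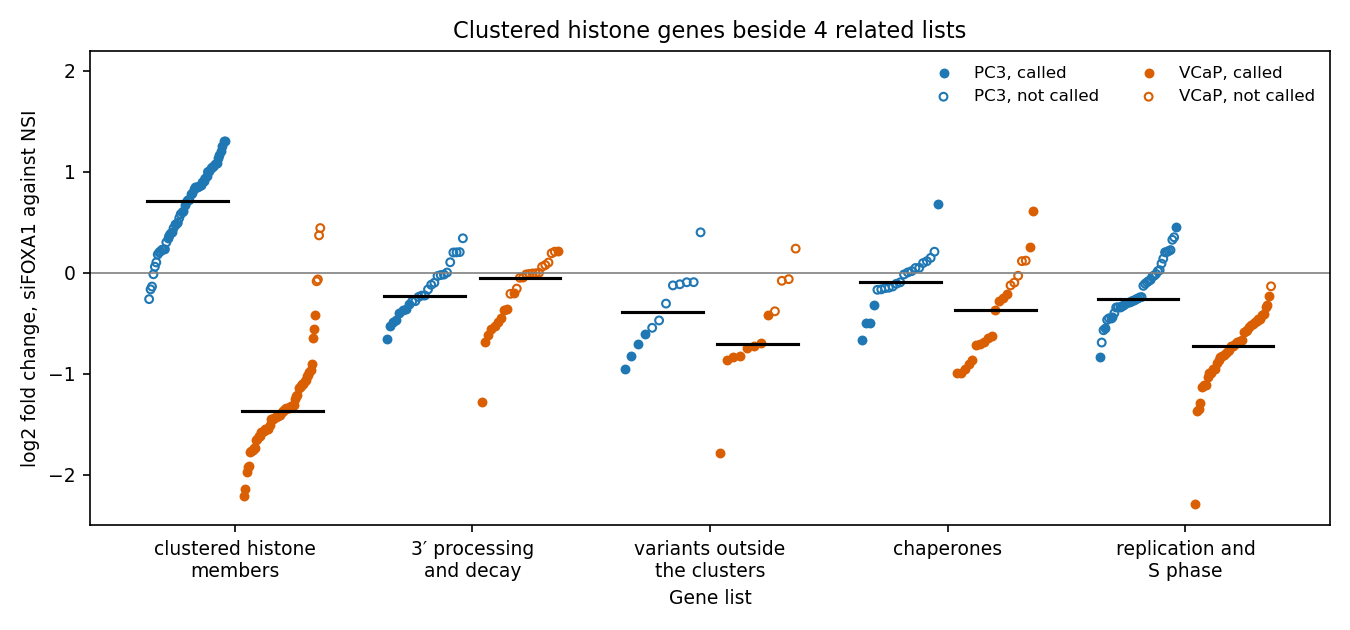
Log2 fold change of siFOXA1 against NSI (y axis) for the clustered histone genes and the genes of 4 related lists, in PC3 (blue) and VCaP (orange), with filled points for adjusted p under 0.05 and black lines for medians. The PC3 median is 0.71 for the clustered genes and -0.25 for the replication list, and the VCaP medians are -1.37 and -0.72.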

How the data were processed

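The deposited values were expected counts per gene, not normalized. The authors obtained the estimated counts with featureCounts (Subread 2.0.0) on GENCODE v28lift37 basic for GRCh37, per the file headers, with both ends mapped and a fragment of several positions or genes divided among them. PC3 counts ignored strand and VCaP counts used it, per the file headers. STAR 2.7.3a is named in the submitters' processing notes. Library totals are in the report.

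Counts were rounded to the nearest whole number, with ties upwards. Each line was fitted on its 6 libraries with edgeR 4.0.16 in R 4.3.3 (TMM, filterByExpr, two-sided quasi-likelihood test), with Benjamini-Hochberg adjustment over all genes tested and a call at an adjusted p under 0.05. Every adjusted p in the text, unless another tool is named, comes from these fits. The difference between lines was the interaction term over 12 libraries. The standard error was the log2 fold change divided by the square root of F. CPM use the TMM factors of each line's own fit. Alternatives included DESeq2 1.42.0, other scalings, no filter, a minimum log2 fold change of 1, a replicate block and leaving out each library. The fitting script was tested on simulated data.

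The members, the lists and the naming rule were chosen with earlier results of these data known. Named members are, in each line, the 2 of each type with the highest level per kilobase, the 3 smallest adjusted p of each direction, and the 3 largest differences between lines of each sign among members averaging 1 CPM or more in both lines. Other members named in the text were exceptions to a count or neighbours of these. From the related lists, SLBP, NPAT and called genes could be named.

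Replicates of a group differed beyond counting noise (chi-square per degree of freedom 9.83 to 142). The labels do not say whether they came from separate cultures, so p-values measure the spread between these libraries, which may be technical. Replicate numbers come from the sample titles. The deposited files carry other numbers, which join the same NSI and siFOXA1 libraries. Deviations of same-numbered NSI and siFOXA1 libraries from their group means correlated across genes at 0.25 to 0.59 in PC3 and at 0.03 to 0.39 in VCaP. Differently numbered libraries gave -0.54 to 0.35 in PC3 and -0.29 to 0.27 in VCaP. In PC3, siFOXA1 replicate 3 correlated at 0.35 with NSI replicate 1 and at 0.25 with NSI replicate 3. Replicate 2 thus stood apart in PC3, but replicates 1 and 3 were not clearly paired. Replicate 3 stood apart in VCaP, at 0.39 for the same number and -0.29 to -0.19 with other numbers. Replicates 1 and 2 of VCaP were not clearly paired.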

Additional observations from a re-analysis of the deposited data

Results flagged for a closer look

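The effect of siFOXA1 differed between PC3 and VCaP, by edgeR's interaction test at an adjusted p under 0.05, in 54 of the 66 clustered histone genes tested, each time lower in VCaP. Of all 30450 genes tested, 11.1% were called lower (22.1% in either direction). Of the 66, 12 were too low to test in PC3, and 5 of these were among the 54. Among the named genes the difference on the log2 scale (VCaP effect minus PC3 effect) was -1.93 for HIST1H1C, -1.61 for HIST1H1D and -1.09 for HIST1H1E, the linker histone genes. Of the H2A genes it was -1.43 for HIST1H2AC, -2.40 for HIST2H2AA3, -1.95 for HIST2H2AC, -2.003 for HIST1H2AL, -2.72 for HIST1H2AI and -2.60 for HIST1H2AE. Of the H2B genes it was -2.15 for HIST1H2BK, -1.40 for HIST2H2BE, -2.25 for HIST1H2BC, -2.40 for HIST1H2BG, -1.67 for HIST1H2BD and -2.63 for HIST1H2BM. The H3 genes HIST1H3H and HIST1H3F differed by -2.56 and -2.34, and the H4 genes HIST1H4H, HIST2H4A, HIST1H4K and HIST4H4 by -1.21, -2.001, -2.02 and -3.06. Without single libraries the difference spread widely for HIST1H2AL (-3.27 to -1.66), HIST1H2BM (-3.18 to -2.28) and HIST1H3F (-3.12 to -2.004). HIST1H2AL was no longer called without PC3 NSI replicate 3 or without PC3 siFOXA1 replicate 2. Line, library kit, dose and medium cannot be told apart in the differences of this section.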

How the results depend on the processing

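Over the 3 counts of members called, the medians and FOXA1, 134 of 136 alternative values kept their direction and side of the threshold. With a minimum log2 fold change of 1 the PC3 count was 1, and FOXA1 in PC3 (-0.68) was no longer called. Leaving out each library gave 23 to 28 called members and medians of 0.61 to 0.84 in PC3, 59 to 60 members and -1.46 to -1.26 in VCaP, and 51 to 55 members for the difference between lines. FOXA1 ranged from -0.74 to -0.58 in PC3, from -2.67 to -2.53 in VCaP and from -2.07 to -1.85 for the difference. With the replicate block, 30 members were called in PC3, 60 in VCaP and 56 for the difference. The block changed no call of a named member but that of HIST1H4H in PC3. Its pairing was clear only for replicate 2 of PC3 and replicate 3 of VCaP. Rounding ties to even, chosen after seeing the data, gave 29, 60 and 53. Signs turned only for values that were not called. HIST1H1E in PC3 (-0.01) was 0.046 with upper-quartile factors, 0.078 with library size alone, 0.023 with scaling without the members, 0.023 with ties rounded to even, 0.019 in the fit of 12 libraries, and up to 0.23 without single libraries. NPAT in PC3 was -0.00032 with no filter, and its difference between lines was -0.035 with library size alone. Without single libraries HIST1H3B in PC3 ranged from -0.62 to 0.41, HIST1H4C from -0.62 to 0.85, HIST1H2AL from -0.34 to 1.39, HIST1H3E in VCaP from -0.16 to 0.058, NPAT in PC3 from -0.089 to 0.11 and its difference from -0.12 to 0.15. Values that kept their sign but spread widely in PC3 were those of HIST1H3F (0.58 to 1.73), HIST1H2BM (0.34 to 1.19), HIST2H2AC (0.15 to 0.87), HIST1H1D (-0.30 to -0.037) and HIST1H4H (0.15 to 0.33), none of them called. The cause was not tested. Of the members under 1 CPM in PC3 NSI, 4 of 21 tested were called, against 23 of 33 at higher levels. Of all genes tested in PC3, 13.9% were called higher. The part of depth was not tested.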

Other observations

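A linker histone gene of the chromosome 6 cluster, HIST1H1B, was nearly silent in both lines. It stood at 0.0770, 0.0199 and 0.0521 CPM in the VCaP NSI libraries, while HIST1H2AL, its neighbour on chromosome 6, was at 18.8 to 22.8 CPM and HIST1H3I, the next member on the other side, had a mean of 47.5 CPM. In PC3 it had 7 counts over the NSI libraries and 37 over the siFOXA1 libraries, too few for the test.

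HIST1H4I was the one H4 gene with a higher mean in PC3 NSI than in VCaP NSI, at 17.5 ± 0.797 against 0.388 ± 0.0108 CPM (SD, n = 3 each).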
